A study of Mus musculus with 4 samples.

Results

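The genes described here are 36 genes of DNA replication and mitosis, named in a list that was drawn up with earlier results of these data known, and read in mouse peritoneal macrophages that were given a fatty acid or vehicle. Of the 36, 35 were measured by probes that name exactly 1 gene, among 19938 genes measured in all. Ccnb1, which codes for a cyclin of mitotic entry, has no such probe and is not analysed here. The 4 groups, all kept for 6 h, were palmitic acid, a saturated chain of 16 carbons, oleic acid, a chain of 18 carbons with 1 double bond, and linoleic acid, likewise of 18 carbons but with 2 double bonds, each at 500 µM in complex with bovine serum albumin (BSA), and a control with 0 µM fatty acid. The control is labelled as BSA only, and the treatment protocol gives ethanol and KOH as its vehicle.

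All cells came from wild-type C57BL/6 mice aged 8 to 12 weeks, 3 days after an injection of 4% thioglycolic acid into the peritoneal cavity, and the cells that stuck to the plate were used. Each group is 1 Affymetrix array of RNA pooled from 3 samples, so there are no replicates, no test or interval of any difference can be had, and each difference below is one between 2 arrays. The 3 comparisons with the control share the control array. Values are log2 expression values, and a difference of 0.58 in log2 is 1.5-fold. The array medians were 7.08 with palmitic acid, 7.07 with oleic acid, 7.13 with linoleic acid and 7.09 in the control. All 9 macrophage markers, among them Adgre1, Csf1r and Cd68, lay above the median of all values, 7.09, with a mean of 12.22 with palmitic acid, 12.40 with oleic acid, 12.32 with linoleic acid and 12.27 in the control. In bulk RNA, fewer dividing cells and less transcript per dividing cell cannot be told apart.

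A cell that divides first licenses its replication origins, by loading the MCM helicase with the help of CDC6 and CDT1, then copies its DNA, and then separates the copies under the control of cyclin-dependent, Aurora and Polo kinases. Genes of the copying step are widely controlled by E2F factors, and genes of mitosis by the MuvB complex with B-MYB and FOXM1, so that both sets are high in dividing cells and low in resting ones. Macrophages drawn into the cavity by an irritant come largely from blood monocytes, and most are not dividing when they are collected.

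Many of the genes were dim in these cells. The filter asked that at least 1 of a gene's 4 values reach the median of all values, which ranks genes by brightness and makes no detection call. By this filter 22 of the 35 measured genes were kept, among 11174 genes kept in all, and 21 of the 22 were above it on all 4 arrays. The exception was Rrm2, with 7.18 with palmitic acid, 7.03 with oleic acid, 7.09 with linoleic acid and 7.20 in the control. The replication genes gave 11 kept genes of 14 listed and the mitosis genes 11 of 22. The 13 measured genes under the filter were Cdc6, Gins1, Prim1, Bub1, Ttk, Birc5, Cenpe, Cenpf, Kif11, Kif20a, Kif23, Nusap1 and Top2a. Their values ran from 5.18 to 6.98, and their differences in any of the 6 comparisons from -0.36 to 0.34, so that 0 of the 13 differed by 1.5-fold.

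**Figure D1:**
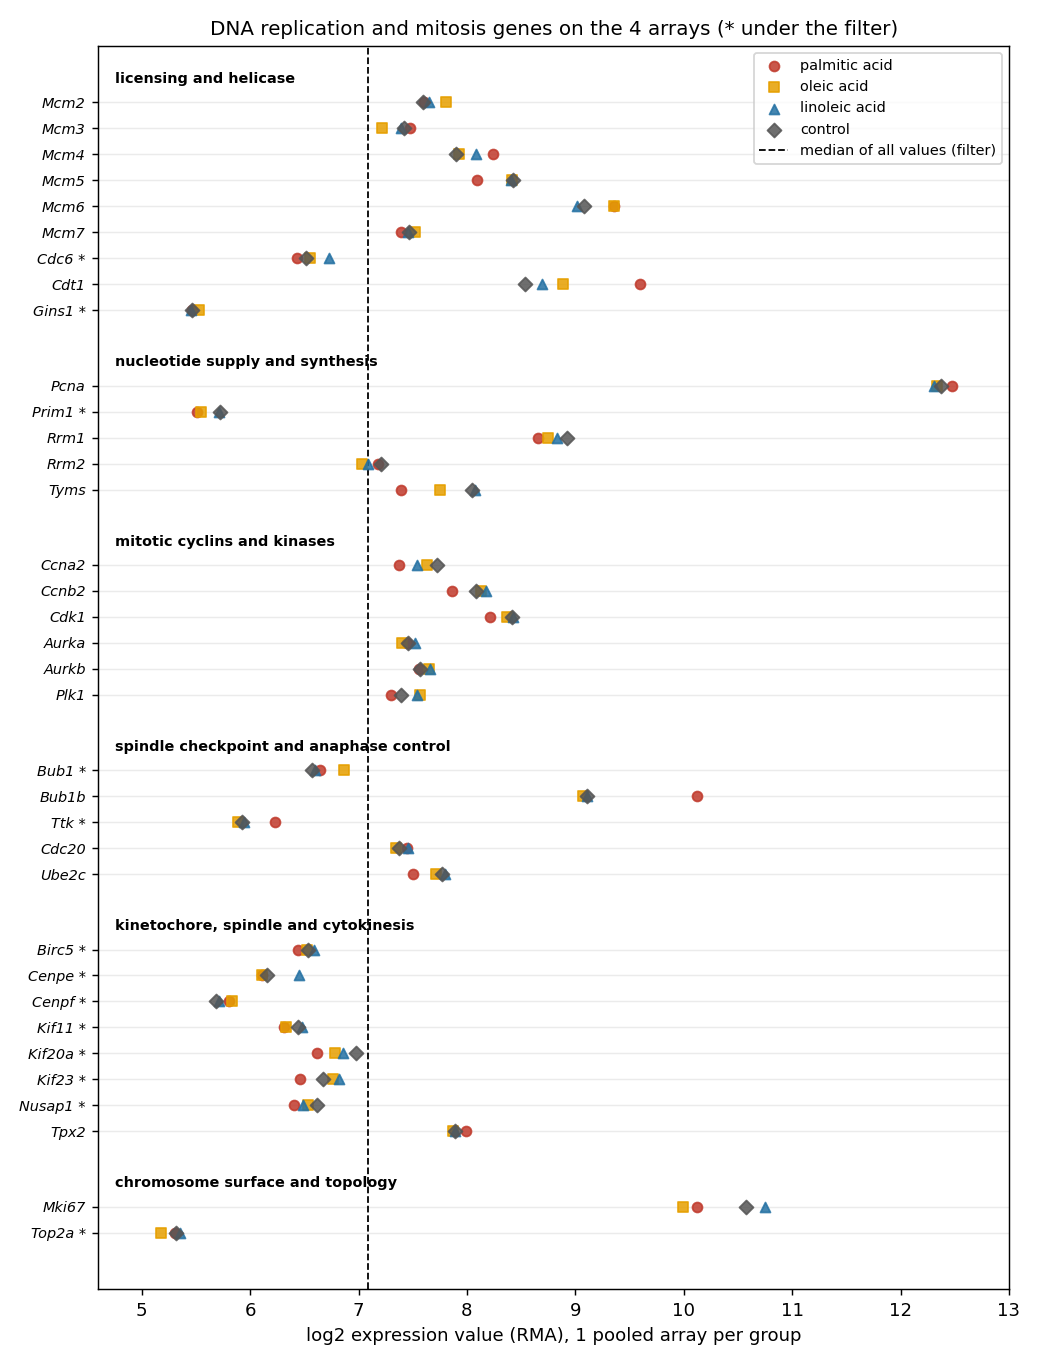
Log2 expression values (x axis) of the 35 measured genes (rows, by role) on the palmitic acid, oleic acid, linoleic acid and control arrays, 1 point per array; the dashed line is the median of all values, 7.09, and an asterisk marks the 13 genes under the filter. The 4 points of most genes lie close together, while Cdt1, Bub1b, Tyms and Mki67 span at least 1.5-fold. Positions of different genes come from different probes and are not to be ranked.

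The spread over the 4 arrays was small for most of the kept genes. Of the 22, 11 spanned less than 1.2-fold from the lowest to the highest array, as did 61.4% of all kept genes. At least 1.5-fold was spanned by 4 of the 22, namely Cdt1, Bub1b, Tyms and Mki67, and by 5.99% of all kept genes. The median span was 0.26 over the 22 genes and 0.22 over all kept genes. The palmitic acid array held the lowest of the 4 values for 10 of the 22 genes and the highest for 7, beside 38.1% and 30.5% of all kept genes.

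With palmitic acid, the replication-licensing gene Cdt1 and the spindle checkpoint gene Bub1b were 2.08-fold and 2.02-fold above the control, and the thymidylate synthase gene Tyms was below it. Past 1.5-fold, 2 of the 22 genes were higher and 1 was lower, where 2.17% of all kept genes were higher and 1.41% lower. By 1.2-fold, 4 genes were higher and 6 lower, where 12.1% and 8.72% of all kept genes were. The median difference of the 22 genes was -0.018, beside 0.00059 for all kept genes, close to each other on this scale.

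Cdt1, whose product loads the MCM helicase at origins, had a value of 9.59 with palmitic acid, 8.88 with oleic acid, 8.69 with linoleic acid and 8.53 in the control. The palmitic acid array stood highest and the control lowest, with both unsaturated acids between them. The difference from the control was 1.06 with palmitic acid, a 2.08-fold higher value, against 0.35 for oleic acid and 0.16 with linoleic acid. Among all kept genes, 0.26% were as far or further above the control under palmitic acid, and 1.81% under oleic acid.

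Bub1b codes for BUBR1, a kinase-like protein that holds back anaphase until chromosomes are attached. Its value was 10.12 with palmitic acid, 9.07 with oleic acid, 9.11 with linoleic acid and 9.11 in the control. Only the palmitic acid array stood apart among the 4, by 1.02 or 2.02-fold from the control, while the other differences from the control were -0.039 and -0.00087. A difference that large upward was held by 0.385% of all kept genes. The other checkpoint genes above the filter did not do the same: Cdc20, the anaphase activator that BUBR1 inhibits, differed from the control by 0.072 with palmitic acid, and Ube2c, the ubiquitin-conjugating enzyme of the anaphase-promoting complex, by -0.27.

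Tyms, whose enzyme makes thymidylate for DNA synthesis, had a value of 7.39 with palmitic acid, 7.75 with oleic acid, 8.07 with linoleic acid and 8.04 in the control. It was lowest with palmitic acid and intermediate with oleic acid, with linoleic acid and the control together at the top. Its differences from the control were -0.66 with palmitic acid (0.634-fold), -0.29 for oleic acid and 0.031 with linoleic acid. Among all kept genes, 1.1% were as far or further below the control with palmitic acid and 2.03% with oleic acid.

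Mki67, the gene of the proliferation antigen Ki-67 that coats mitotic chromosomes, had a value of 10.12 with palmitic acid, 9.99 with oleic acid, 10.74 with linoleic acid and 10.57 in the control. Palmitic and oleic acid formed the lower pair and linoleic acid and the control the upper pair. The differences from the control were -0.45 with palmitic acid, -0.58 with oleic acid (0.67-fold, just short of 1.5-fold) and 0.17 with linoleic acid. As far or further below the control were 2.52% of all kept genes with palmitic acid and 0.358% with oleic acid. Top2a, the topoisomerase gene that usually moves with Mki67 in dividing cells, lay under the filter and has 2 probes that disagree. Its brighter probe differed from the control by -0.16 with palmitic acid, -0.15 with oleic acid and by 0.060 with linoleic acid, and its dimmer probe by 0.14, -0.12 and 0.0035 in the same order, so that their mean with palmitic acid, -0.012, stands for neither. Kit, the stem cell factor receptor gene in the mast cell marker list, had a value of 6.85 with palmitic acid, 6.85 with oleic acid, 7.64 with linoleic acid and 7.30 in the control, the same pairs as Mki67. Its palmitic and oleic acid values lay under the median of all values, 7.09. Kit thus passed the filter only through the linoleic acid and control arrays, and its pairs are those of a gene near the filter. The other 5 mast cell markers, among them Cpa3, lay under the filter, and they did not follow Kit: 3 of the 5 were above the control with palmitic acid and 3 with oleic acid. The mean of the 6, which moves largely through Kit, was 5.77 with palmitic acid, 5.79 with oleic acid, 5.93 with linoleic acid and 5.82 in the control. Any part of such cells in the Mki67 values was not tested.

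The promoters of these 4 genes are shown because they are the genes that span at least 1.5-fold. Bub1b and Mki67 hold the same kinds of element, and Tyms holds none of those sought. The stretches are from RefSeq, build GRCm38.p6, 5′ to 3′ on the strand of the gene, with motif letters in capitals. Positions are counted from the start annotated for the promoter. For Bub1b, Tyms and Mki67 the gene annotation has another start, at 118598202, 30073645 and 135716450, against 118598211, 30073625 and 135716379. The end of the Tyms stretch thus lies inside the gene by that annotation. Motifs were sought on both strands: the cell cycle genes homology region (CHR, TTTGAA) and the CCAAT box, which together recruit MuvB and NF-Y at mitotic genes, and the E2F strings TTTCCCGC, TTTGGCGC, TTTCGCGC and TTTGCCGC.
Cdt1 (chr8:122568035-122568064, + strand, bases 21 to 50 after the start, with 1 E2F string): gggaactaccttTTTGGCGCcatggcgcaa
Bub1b (chr2:118598081-118598180, + strand, from 130 to 31 bases before the start, with 1 CCAAT box in reverse): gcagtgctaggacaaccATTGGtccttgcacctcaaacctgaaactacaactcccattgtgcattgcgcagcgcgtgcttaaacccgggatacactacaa
Tyms (chr5:30073626-30073745, - strand, from 120 to 1 bases before the start, with none of the motifs): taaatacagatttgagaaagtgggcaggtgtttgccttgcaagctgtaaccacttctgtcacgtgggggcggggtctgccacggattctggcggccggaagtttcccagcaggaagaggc
Mki67 (chr7:135716460-135716579, - strand, from 200 to 81 bases before the start, with 3 CCAAT boxes and 2 CHR elements): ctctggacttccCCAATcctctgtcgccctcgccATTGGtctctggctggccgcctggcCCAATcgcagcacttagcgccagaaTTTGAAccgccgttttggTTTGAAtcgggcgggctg

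A promoter window of 250 bases before to 50 after the start was at hand for 30 of the 36 genes. The CHR letters stood in the windows of 13 of 18 mitosis genes (72.2%) and of 1 of 12 replication genes (Mcm2), against 17.9% of all 32851 windows. The CCAAT letters stood in 16 of 18 mitosis genes and 9 of 12 replication genes, against 37.4% of all windows. An E2F string stood in 6 of 12 replication genes (Mcm3, Mcm5, Mcm6, Mcm7, Cdc6 and Cdt1) and in 1 of 18 mitosis genes (Cdk1), against 2.26% of all windows. Some matches overlap: E2F strings with each other in Mcm5 and Mcm6, CCAAT letters with each other in Ube2c, and an E2F string with CCAAT letters in Mcm7. Kept genes that hold both CHR and CCAAT letters stood on both sides of the control with palmitic acid. Above it were Bub1b (1.02), Cdc20 (0.072) and Mcm2 (0.0097). Below it were Mki67 (-0.45), Ube2c (-0.27), Ccnb2 (-0.22), Cdk1 (-0.20), Plk1 (-0.091) and Aurka (-0.0063). The differences of Mcm2 and Aurka are too small to give a direction. In Bub1b the CHR copy lies 41 bases after the start. A match describes letters in the window and not a bound site.

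Among the MCM subunits, which form the ring of the replicative helicase and act as 1 complex, the differences from the control with palmitic acid pointed both ways. Mcm4 had a value of 8.24 with palmitic acid, 7.92 with oleic acid, 8.08 with linoleic acid and 7.90 in the control, and its difference with palmitic acid was 0.34. Mcm5 had a value of 8.09 with palmitic acid, 8.42 with oleic acid, 8.40 with linoleic acid and 8.42 in the control, a difference of -0.33 with palmitic acid. The palmitic acid array was thus the highest of the 4 for Mcm4 and the lowest for Mcm5. Mcm6 had a value of 9.35 with palmitic acid, 9.35 with oleic acid, 9.01 with linoleic acid and 9.08 in the control, so that palmitic and oleic acid formed the upper pair, by 0.28 and 0.27. Mcm2 was highest with oleic acid (0.22 above the control), Mcm3 lowest with oleic acid (-0.20), and Mcm7 stayed within 0.12 over the 4 arrays. Of the other licensing and helicase genes, Cdc6, the partner of CDT1 at origins, and Gins1, a subunit of the active helicase, lay under the filter, with -0.081 and -0.0028 for palmitic acid against the control.

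Of the 4 kept genes that supply nucleotides or carry out synthesis, Tyms alone passed 1.5-fold from the control, and was lower with palmitic acid. Of all kept genes, 1.41% were that far lower and 2.17% that far higher with palmitic acid. Rrm1, the large subunit of ribonucleotide reductase, had a value of 8.65 with palmitic acid, 8.75 with oleic acid, 8.83 with linoleic acid and 8.92 in the control, and the control was the highest of the 4. Rrm2, the small subunit, differed from the control by -0.025 with palmitic acid, -0.17 with oleic acid and by -0.11 with linoleic acid. Pcna, the sliding clamp of the DNA polymerases, had a value of 12.47 with palmitic acid, 12.34 with oleic acid, 12.31 with linoleic acid and 12.38 in the control. It thus differed from the control by 0.10 at most, and the 2 probes listed for it hold identical values. Prim1, the primase subunit, was under the filter, with -0.22 for palmitic acid against the control. With oleic acid all 4 were below the control, where 44.6% of all kept genes were, with a median of -0.17, beside 0.015 for all kept genes. With palmitic acid 3 of 4 were below it, beside 49.9% of all kept genes, with a median of -0.15. Under linoleic acid 3 of 4 were, beside 34.8%, with a median of -0.082. That count became 4 of 4 after centring arrays on their medians, and likewise after repeated quantile normalization.

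Of the 6 kept cyclins and kinases of mitotic entry, Ccna2 alone passed 1.2-fold from the control, and was lower with palmitic acid. Of all kept genes, 8.72% were that far lower and 12.1% that far higher with palmitic acid. Ccna2, the cyclin of S phase and early mitosis, had a value of 7.37 with palmitic acid, 7.63 with oleic acid, 7.54 with linoleic acid and 7.72 in the control. Ccnb2, a mitotic cyclin, had a value of 7.86 with palmitic acid, 8.13 with oleic acid, 8.17 with linoleic acid and 8.08 in the control. Cdk1, the kinase that both activate, had a value of 8.21 with palmitic acid, 8.37 with oleic acid, 8.42 with linoleic acid and 8.41 in the control. In these 3 genes the palmitic acid array was the lowest of the 4, at -0.35, -0.22 and -0.20 from the control. Plk1, the Polo kinase, differed from the control by -0.091 with palmitic acid, 0.17 with oleic acid and by 0.15 with linoleic acid, and the Aurora kinase genes Aurka and Aurkb by -0.0063 and -0.012 with palmitic acid. All 6 were below the control with palmitic acid, where 49.9% of all kept genes were, with a median of -0.14. Aurka, though, changed sign when each array was centred on its median. By 1.5-fold 0 of 6 differed, beside 2.17% of all kept genes higher and 1.41% lower. With oleic acid 3 of the 6 were below the control, and 1 of 6 under linoleic acid, where 44.6% and 34.8% of all kept genes were. The medians were 0.0023 and 0.078. The linoleic acid count became 2 of 6 after centring, and likewise after repeated quantile normalization.

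Genes of the kinetochore, the spindle and cytokinesis were mostly under the filter. Only Tpx2, which activates Aurora A on the spindle, was kept, and it differed from the control by 0.10 with palmitic acid, -0.022 with oleic acid and by 0.0014 with linoleic acid. Of those under the filter, the cytokinesis kinesin gene Kif20a had a value of 6.62 with palmitic acid, 6.78 with oleic acid, 6.86 with linoleic acid and 6.98 in the control, so that the control was the highest. Kif23, another cytokinesis kinesin gene, was lowest with palmitic acid, at 6.46, against 6.67 in the control. Ttk, the checkpoint kinase gene MPS1, was highest with palmitic acid, at 6.23, against 5.93 in the control, and the kinetochore kinesin gene Cenpe was highest with linoleic acid, at 6.45, against 6.16 in the control. Bub1, the kinase that recruits BUBR1, differed from the control by 0.074 with palmitic acid and 0.30 with oleic acid.

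**Figure D2:**
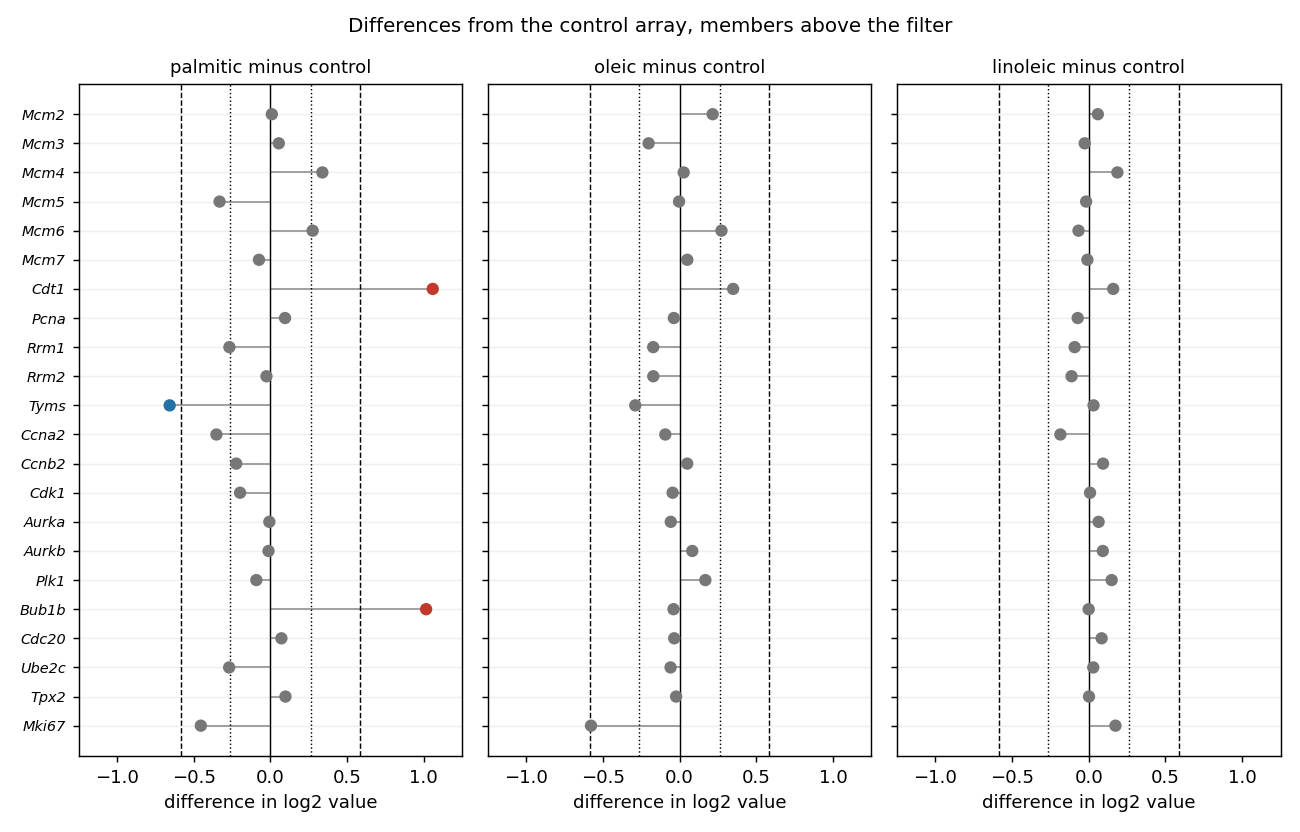
Differences in log2 value from the control array (x axis) of the 22 kept genes (rows) with palmitic, oleic and linoleic acid; dashed lines mark 1.5-fold and dotted lines 1.2-fold, with red points at least 1.5-fold higher and blue points at least 1.5-fold lower. Cdt1 (1.06), Bub1b (1.02) and Tyms (-0.66) pass 1.5-fold with palmitic acid, no gene does with oleic or linoleic acid, and Mki67 with oleic acid (-0.58) lies just inside the line.

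With oleic acid, 0 of the 22 kept genes were 1.5-fold higher and 0 lower than in the control, where 0.376% of all kept genes were higher and 0.34% lower. By 1.2-fold, Cdt1 and Mcm6 were higher and Tyms and Mki67 lower, where 4.02% and 2.53% of all kept genes were. The median of the 22 genes was -0.036, beside 0.015 for all kept genes. With linoleic acid, 0 of the 22 were 1.5-fold higher and 0 lower, where 0.0358% of all kept genes were each way. Nor did any pass 1.2-fold, where 3.23% of all kept genes were higher and 1.09% lower. The largest differences with linoleic acid were 0.19 for Mcm4 and -0.19 for Ccna2, and the median was 0.019, beside 0.042 for all kept genes, with the sign of the first turning under both other scalings (-0.016 with arrays centred on their medians). Of all kept genes past 1.5-fold with linoleic acid 50% were higher than the control, against 22.2% after centring and 18.2% after repeated quantile normalization. Of the 11 kept mitosis genes 9 were above the control with linoleic acid, where 65.2% of all kept genes were, but 6 of 11 were under both other scalings.

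The fatty acids were also set against each other at the same dose and time. Between palmitic and oleic acid, which differ by 2 carbons and 1 double bond, 2 of the 22 genes passed 1.5-fold upward and 0 downward, where 1.82% of all kept genes were higher and 1.66% lower. Over all kept genes 203 were higher and 185 lower, against 162 and 219 after repeated quantile normalization. The 2 were Bub1b, with a difference of 1.06, and Cdt1, with 0.71. By 1.2-fold, 3 genes were higher, with Mcm4 (0.31) the third, and 3 lower, namely Tyms (-0.37), Mcm5 (-0.33) and Ccnb2 (-0.27), where 13% and 11.4% of all kept genes were. Mki67 differed by 0.12 between these 2 arrays. The median of the 22 was -0.046, beside -0.019 for all kept genes.

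Between palmitic and linoleic acid, 2 genes passed 1.5-fold upward and 2 downward, where 1.58% of all kept genes were higher and 2.01% lower. The balance over all kept genes turned with the scaling, from 177 higher and 225 lower to 212 higher and 187 lower after centring. Bub1b (1.02) and Cdt1 (0.90) were higher, and Tyms (-0.69) and Mki67 (-0.63) lower. By 1.2-fold, 3 genes were higher, with Mcm6 (0.34) added, and 5 lower, with Ccnb2 (-0.32), Mcm5 (-0.31) and Ube2c (-0.30) added, where 8.41% and 10.8% of all kept genes were. The median was -0.068, beside -0.031 for all kept genes.

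Linoleic acid has 1 double bond more than oleic acid on a chain of equal length. Mki67 was the 1 gene of the 22 past 1.5-fold upward, by 0.75 or 1.68-fold, and 0 passed downward, where 0.707% of all kept genes were higher and 0.34% lower. Tyms was higher by 0.32 and Mcm6 differed by -0.34, so that by 1.2-fold 2 genes were higher and 1 lower, where 7.14% and 4.16% of all kept genes were. Cdt1 differed by -0.19 and Bub1b by 0.038. The median was 0.041, beside 0.018 for all kept genes, and became negative under both other scalings. Of all kept genes past 1.5-fold here 67.5% were higher with linoleic acid, against 52.2% after centring and 50.4% after repeated quantile normalization. With 1 array for each acid, no interval of these differences can be given.

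**Figure D3:**
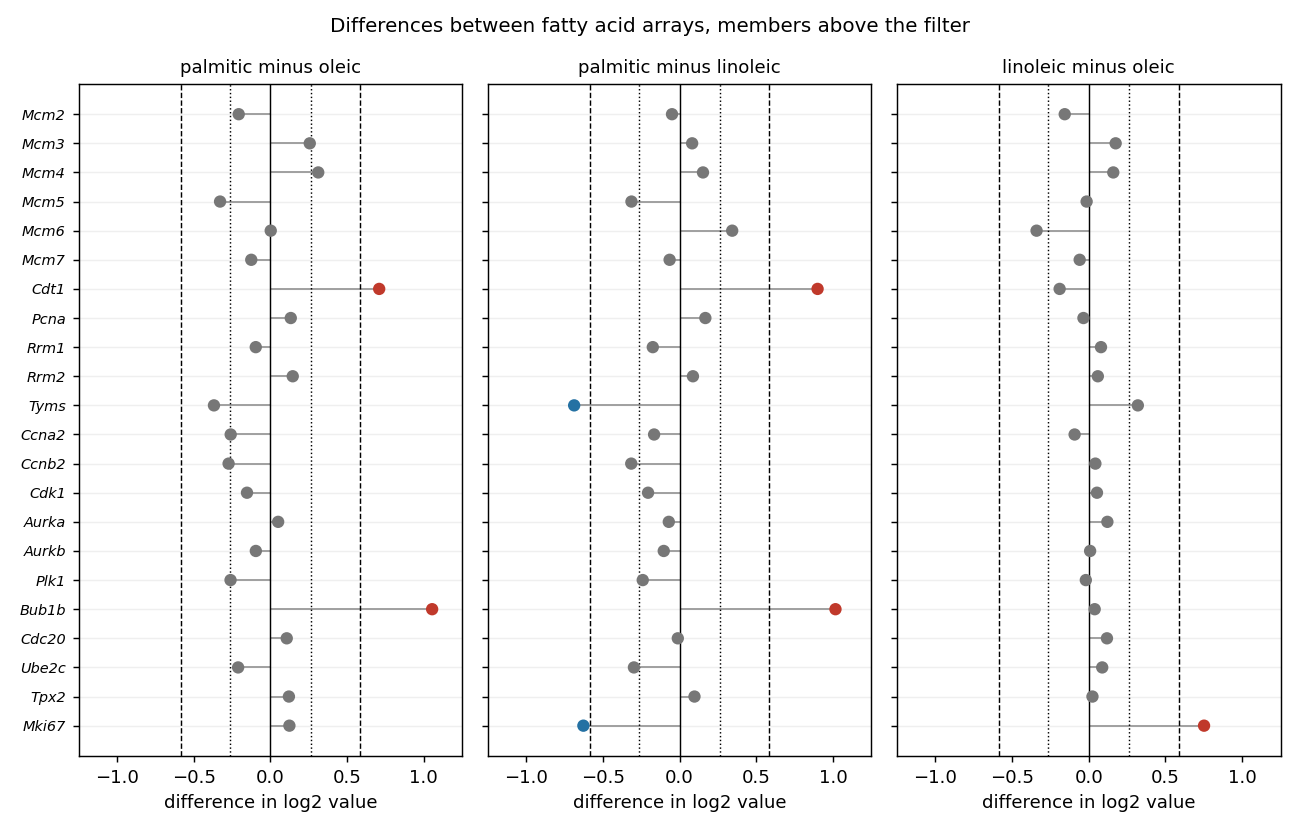
Differences in log2 value between fatty acid arrays (x axis) of the 22 kept genes (rows), as palmitic minus oleic, palmitic minus linoleic and linoleic minus oleic acid; lines and colours mark 1.5-fold and 1.2-fold. Bub1b and Cdt1 pass 1.5-fold upward with palmitic acid against either unsaturated acid, and Mki67 is 1.68-fold higher with linoleic than with oleic acid.

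Other genes of the same programme were read from lists written by name. Of 46 further replication genes, 33 were kept, and 0 of them differed by 1.5-fold from the control with palmitic, oleic or linoleic acid. Among all kept genes 2.17% were that far higher and 1.41% lower with palmitic acid. The shares were 0.376% and 0.34% with oleic acid, and 0.0358% each way with linoleic acid. With palmitic acid 23 of the 33 were below the control, where 49.9% of all kept genes were, with a median of -0.088, and this count was the same under both other scalings, which are centring on array medians and repeated quantile normalization. The largest differences were 0.51 for Wdhd1, a replisome scaffold, 0.49 for Chaf1b, a histone chaperone subunit, -0.34 for Pold2, a DNA polymerase delta subunit, and -0.32 for Gins4, a helicase subunit. With oleic acid 23 of 33 were above the control, where 55.3% of all kept genes were, with a median of 0.026. Under linoleic acid 17 of 33 were, where 65.2% of all kept genes were, with a median of 0.0018 that turned negative under both other scalings.

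Of 60 further mitosis genes only 15 were kept. Against the control, palmitic acid gave 2 of the 15 past 1.5-fold lower and 0 higher, beside 1.41% and 2.17% of all kept genes, and 13 were below 0, beside 49.9%, with a median of -0.11. The 2 were Mad2l1, the checkpoint gene MAD2, with -0.86, and Trip13, whose ATPase remodels MAD2, with -0.83. Mad2l1 had a value of 9.52 with palmitic acid, 9.81 with oleic acid, 10.20 with linoleic acid and 10.38 in the control. Trip13 had a value of 8.13 with palmitic acid, 8.45 with oleic acid, 8.98 with linoleic acid and 8.95 in the control. Both were lowest with palmitic acid and next lowest with oleic acid, the order seen in Tyms, and both opposite to Bub1b, which acts in the same checkpoint. With oleic acid 0 of the 15 passed 1.5-fold, beside 0.376% of all kept genes higher and 0.34% lower, and Mad2l1 stood at -0.57. With linoleic acid 0 passed, beside 0.0358% each way. The medians were -0.018 with oleic acid and 0.024 with linoleic acid, and both changed sign under both other scalings.

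Among 19 kept genes of transcriptional control, E2f8, a repressor of E2F target genes, had a value of 8.57 with palmitic acid, 8.97 with oleic acid, 9.30 with linoleic acid and 9.43 in the control. Its difference with palmitic acid, -0.85, was the 1 difference past 1.5-fold from the control in this list, beside 1.41% of all kept genes. With oleic acid 0 genes of the list passed, beside 0.376% higher and 0.34% lower, and with linoleic acid 0, beside 0.0358% each way. Myc differed from the control by 0.51 with palmitic acid and Rbl2, the pocket protein p130, by -0.48. The activators of the programmes differed less: with palmitic acid E2f1 differed by -0.17, Mybl2, the gene of B-MYB, by -0.24 and Foxm1 by 0.14. Lin54, a subunit gene of the MuvB complex, differed by 0.40. By 1.2-fold, 4 of the 19 genes were higher and 3 lower with palmitic acid, beside 12.1% and 8.72% of all kept genes. The list medians, in the same order of acids, were -0.072, 0.021 and -0.0061.

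Upstream of replication, 12 genes of cyclins and kinases of G1 and of their inhibitors were kept. Past 1.5-fold from the control, 1 of them was higher and 2 were lower with palmitic acid, beside 2.17% and 1.41% of all kept genes. With oleic acid 0 passed, beside 0.376% higher and 0.34% lower, and with linoleic acid 0, beside 0.0358% each way. With palmitic acid the 3 were Ccne1, cyclin E1, with 0.67, Ccnd2, cyclin D2, with -1.01 and Ccnd3, cyclin D3, with -0.89. Ccnd1 stood at -0.24. Ccnd2 had a value of 10.76 with palmitic acid, 12.29 with oleic acid, 11.82 with linoleic acid and 11.77 in the control. Cdkn1a is named on its probe together with another gene and is not analysed here. Beside the 2.17% and 1.41% with palmitic acid, 0 of 11 kept p53 target genes passed 1.5-fold upward and 2 downward. The 2 were Gadd45a with -1.17 and Fas with -0.85, and Mdm2 stood at 0.49. Of the 4 kept genes of the DNA damage checkpoint, 1 passed 1.5-fold upward with palmitic acid, beside 2.17% of all kept genes, the damage kinase gene Atm, with 0.71.

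Markers of other cells that could be in the culture were read beside these values. All 8 kept fibroblast and mesothelial markers of 11 were below the control with palmitic acid, where 49.9% of all kept genes were. Their median was -0.25. Past 1.5-fold lower were 2 of the 8, Pdgfrb with -1.29 and Pdgfra with -0.86, beside 1.41% of all kept genes. With oleic acid 1 of the 8 was, Pdgfrb with -0.71, beside 0.34%. Pdgfrb had a value of 8.74 with palmitic acid, 9.33 with oleic acid, 10.20 with linoleic acid and 10.04 in the control. Over all 11 the mean value was 7.80 with palmitic acid, 8.06 with oleic acid, 8.18 with linoleic acid and 8.11 in the control. The part of these cells in the lower values of Tyms, Mki67 and the mitotic cyclins with palmitic acid was not tested. Cdt1 and Bub1b differed in the opposite direction to these markers, and any part of these cells in their values was not tested either. Among markers of B cells, T and natural killer cells, neutrophils, eosinophils, mast cells, dendritic cells and erythroid cells, the number kept of those measured was 1 of 4, 1 of 6, 2 of 6, 1 of 5, 1 of 6, 1 of 4 and 0 of 2, in that order.

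**Figure D4:**
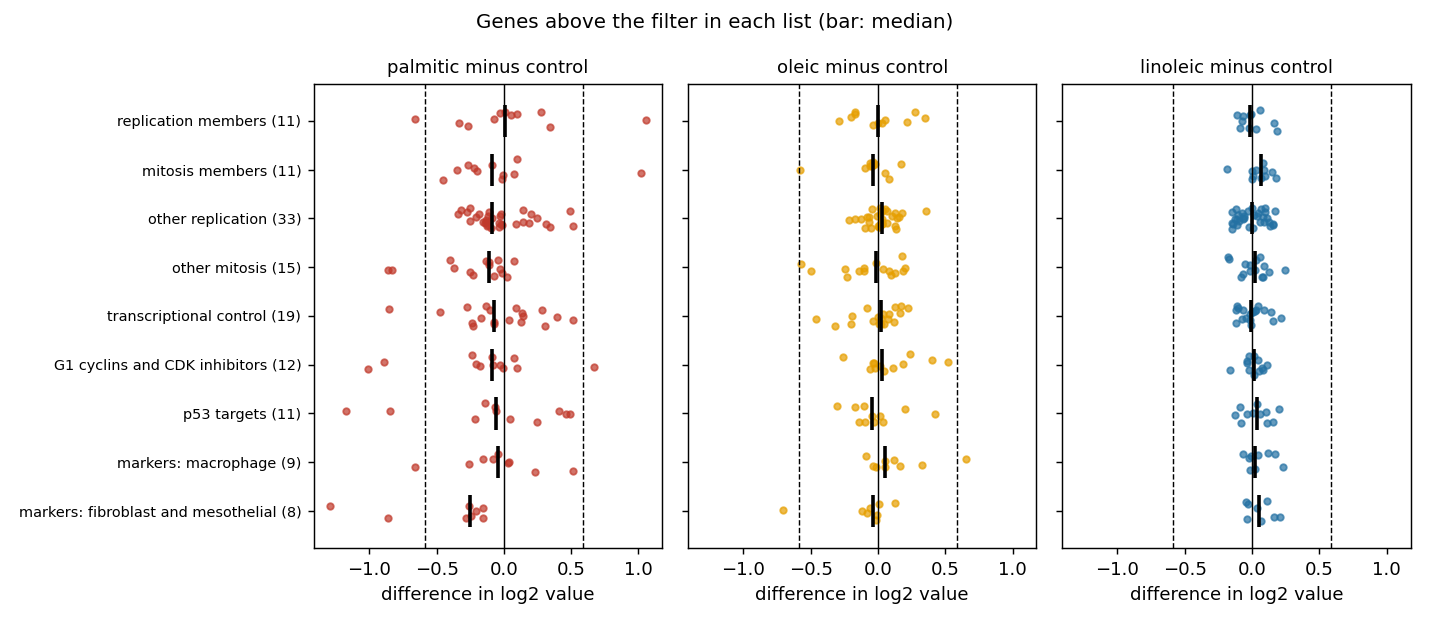
Differences in log2 value from the control (x axis) with palmitic, oleic and linoleic acid, 1 point per kept gene, by list (rows, with the number of kept genes); the bar is the list median and dashed lines mark 1.5-fold. With palmitic acid the fibroblast and mesothelial markers have a median of -0.25. The medians are 0.0097 and -0.091 for the replication and mitosis genes of the main list, and -0.088 and -0.11 for the further ones. The 0.0097 became -0.023 after repeated quantile normalization.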

How the data were processed

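Gene expression was measured on 4 arrays, 1 per group. The deposited values are log2 values, as judged from their range, and the submitters' processing notes name RMA, a method that corrects background, normalizes by quantiles and summarises probes. The version of RMA is not given in the sources used here. RNA of 3 samples was pooled per array, per the labels' protocols, and 100 ng was labelled. Of 35556 probes, 21789 name exactly 1 gene and were averaged to 19938 genes; 1621 name several genes and 12146 name none in the annotation used. Gene symbols were checked against RefSeq GRCm38.p6 by Entrez ID, which held 21698 of the probes, and 0 needed an update. Differences were taken between arrays and counted past 1.5-fold and 1.2-fold with Python 3.11.15 and pandas 2.3.3; the counting was tested on simulated data. The number of arrays limits the precision. Probes of related genes can bind each other's transcripts. Of the other lists, at most 2 genes each way per comparison, and 7 cell cycle regulators whatever their values, were to be named; further genes named from the marker lists serve as examples. The members and lists were chosen with earlier results of these data known. Alternatives tried were median centring of the arrays, repeated quantile normalization, the brightest probe of a gene, other filters and a floor for dim values.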

Additional observations from a re-analysis of the deposited data

How the results depend on the processing

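No paired analysis was possible because each group has 1 array. Each comparison was recomputed under 7 alternatives, and a median was taken as moved when it changed by 0.05 or more in log2, since no spread between samples exists. The stricter filter at the 75th percentile left 5 of the 22 genes, Mcm6, Cdt1, Pcna, Bub1b and Mki67, so its medians rest on these: 0.28 for palmitic acid against control, 0.13 for palmitic against oleic acid, 0.34 for palmitic against linoleic acid and -0.035 for linoleic against oleic acid. Under it 0 genes were 1.5-fold lower and 1 was 1.2-fold lower with palmitic acid than in the control, 1 was 1.2-fold lower with oleic acid than in the control, 0 were 1.2-fold lower with palmitic than with oleic acid, 1 was lower at either fold with palmitic than with linoleic acid, and 1 was 1.2-fold higher with linoleic than with oleic acid. With arrays centred on their medians, the linoleic minus oleic acid median was -0.014, the 1.2-fold lower count for palmitic against oleic acid was 5, and the 1.5-fold lower count for palmitic against linoleic acid was 1, because Mki67 stood at -0.58. After repeated quantile normalization the medians were -0.036 for linoleic acid against control and -0.022 for linoleic against oleic acid, the 1.2-fold lower count for palmitic against oleic acid was 5 and the 1.2-fold higher count for oleic acid against control was 1. Without a filter, 35 genes entered, with 1 gene 1.2-fold higher with linoleic acid than in the control, 8 1.2-fold lower with palmitic than with linoleic acid and 2 1.2-fold lower with linoleic than with oleic acid. The counts over all kept genes moved too. Those 1.5-fold lower with palmitic than with oleic acid went from 185 to 192 after centring and 219 after repeated quantile normalization. Against linoleic acid they went from 225 to 187 after centring. Shares of all kept genes past 1.2-fold were not counted under the alternatives, so the moved counts are not read as results about the members. Over the genes each alternative held, the medians against the control kept a negative sign in every alternative with oleic acid. With palmitic acid they did in every alternative but the stricter filter. The medians were small, so their sign alone says little. After repeated quantile normalization the palmitic acid median was -0.040, beside -0.035 for all kept genes. The oleic acid median was then -0.023, beside 0.019 for all kept genes. The genes held were 22, save 35 without a filter and 5 under the stricter filter. The palmitic minus control differences of the named genes ranged over the scalings, the probe choice and the floor from 1.00 to 1.07 for Cdt1, from 0.94 to 1.02 for Bub1b, from -0.68 to -0.65 for Tyms and from -0.52 to -0.44 for Mki67. Dimness limits the values of the 13 genes under the filter.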
